A study of Mus musculus with 8 samples.

Results

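The set described here is a family of 34 mouse genes for cell adhesion: 18 integrin alpha chains, 8 integrin beta chains, P-selectin and E-selectin, the selectin ligand PSGL-1, the hyaluronan receptor CD44, and 4 adhesion molecules of the immunoglobulin superfamily. Its members were taken by gene symbol alone from a table of accessible chromatin regions. Of the 46512 distinct regions used, 180 were listed for a member, and 30 of the 34 genes had at least 1 region. The other 4 genes, Itga5, Itgad, Itgb6 and Sele, had none and are not described further.

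The assay was ATAC-seq, which reads out accessible chromatin as sequenced fragments that a transposase has cut from DNA not wrapped tightly in nucleosomes. The cells came from C57BL/6 mice that carry the Foxp3RFP reporter, in which regulatory T cells (Treg) glow red and other CD4+ T cells do not. The 4 groups were RFP+ Tregs from visceral adipose tissue (VAT) of males, RFP+ Tregs from VAT of females, RFP+ Tregs from the spleen of males, and RFP- CD4+ T cells from VAT of males, each with 2 libraries. Each library pooled cells sorted by flow cytometry from 3 mice, and the ages of the mice are not given in the sources used here. The labels do not say whether the 2 libraries of a group came from separate animals, so the p-values below measure the spread between these libraries, which may be technical.

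Integrins are pairs of an alpha and a beta chain that hold cells to the extracellular matrix and to other cells, and that pass signals in both directions across the membrane. The alpha chain sets much of the ligand: some chains bind collagen or laminin, some bind ligands with an RGD peptide such as vitronectin and fibronectin, and others are chains of leukocytes that bind ICAM proteins or E-cadherin. Selectins and their sugar-bearing ligands slow leukocytes on vessel walls, and integrins then arrest them, which is how T cells enter tissue. In Tregs, the alpha v beta 8 pair is also known for releasing active TGF-beta from its latent form.

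The libraries held 5724685 to 15805270 counts in the regions used, after 22.6% to 34.1% of counts had fallen on mitochondrial DNA. Labels were checked first: the Foxp3 region chrX:7582208-7585993 had 18.8 and 14.0 CPM (counts scaled to a common library size) in male VAT Tregs, 27.1 and 32.9 CPM in female VAT Tregs and 13.6 and 13.6 CPM in male spleen Tregs, against 1.54 and 2.16 CPM in male VAT CD4+ T cells. Not every Foxp3 region separated the groups. The wider chrX:7572009-7576644 had 42.7 and 24.6 CPM in male VAT Tregs and 32.4 and 36.2 CPM in male VAT CD4+ T cells. The Y-linked gene Uty had 0 CPM in both female libraries and at least 11.2 CPM in every male library. Among 66 tested regions of Treg marker genes, 21 were higher and 1 was lower in Treg over CD4+. That is 31.8% and 1.52%, beside 5.18% and 2.51% of all tested regions. Fewer were higher without male VAT Treg replicate 1. That library stood apart in that 5.55% of its counts lay in regions under 1000 bp, against 3.60% to 4.37% in the other 7 libraries. Member calls that ended without it are named where they are described.

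In all, 4 comparisons were made with edgeR's quasi-likelihood test and Benjamini-Hochberg adjustment over 45709 regions, and regions with an adjusted p under 0.05 are those called here. Male VAT Tregs enter 3 of them, male spleen Tregs 2 and female VAT Tregs 2, so the comparisons share libraries and are not independent of each other. Of the 180 regions, 177 had enough counts for the test. In bulk ATAC-seq, accessibility in more cells and greater accessibility per cell cannot be told apart. Coordinates are on mm10 (GRCm38), as the deposited table gives them, and "inside the gene" means within the gene's bounds, since no exon annotation was used.

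In male over female VAT Tregs, 8 of the 177 regions were higher and 1 was lower, that is 4.52% and 0.565%, beside 2.04% and 1.21% of all tested regions. The higher ones lay at Itga1, Itga2, Selp, Cd44 and Alcam, and the lower one at Itga2b. In male VAT over male spleen Tregs, 15 were higher and 5 lower (8.47% and 2.82%, beside 4.64% and 2.09% of all tested regions). Female VAT Tregs differed from male spleen Tregs, a contrast of both tissue and sex, at 2 higher regions and 1 lower region (1.13% and 0.565%, beside 1.18% and 0.197% of all tested regions). In male VAT Tregs over male VAT CD4+ T cells, 11 regions were higher and 2 lower (6.21% and 1.13%, beside 5.18% and 2.51% of all tested regions), so the share of higher regions there was near the background. The median log2 fold change of the 177 regions was 0.09, 0.10, 0.05 and 0.06 in these comparisons, beside 0.01, -0.01, -0.00 and -0.02 over all tested regions. These counts depended on single libraries. Without male VAT Treg replicate 1, most member calls were lost by sex, by tissue in males and in Treg over CD4+. Some member regions that the fit of all 8 libraries had not called were called instead. Higher calls also became fewer among all tested regions. Among all tested regions, lower calls then outnumbered higher ones by sex and by tissue in males, the other way round from the fit of all 8 libraries. Leaving out either female VAT library lowered the counts by sex, and leaving out either spleen library those by tissue in males. Higher calls in Treg over CD4+ were fewer without CD4+ replicate 1. The counts over all tested regions fell in the same fits. Scaling by TMM (trimmed mean of M-values, which sets the libraries to a common scale) on regions under 1000 bp alone also moved the split, to 487 higher and 479 lower of all regions by sex, 1310 and 1658 by tissue in males and 1219 and 1998 in Treg over CD4+, against 934 and 555, 2121 and 957, and 2368 and 1146 with TMM on all regions. The members were then 3 higher and 1 lower, 11 and 7, and 8 and 5 in these comparisons. As shares this was 1.69% and 0.565%, 6.21% and 3.95%, and 4.52% and 2.82%. The shares of all tested regions were 1.07% and 1.05%, 2.87% and 3.63%, and 2.67% and 4.37%. The DESeq2 Wald test called no member region by sex, beside 0.774% higher and 0.333% lower of all tested regions. By tissue in males it called 6 higher and 1 lower (3.39% and 0.565%, beside 2.43% and 0.545% of all tested regions).

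At an unadjusted p under 0.05, edgeR had 14 higher and 5 lower, 27 and 11, 10 and 6, and 24 and 11 of the 177 regions in the 4 comparisons, in the order given above. In either direction these were 19, 38, 16 and 35 of the 177, beside 6130, 8516, 4221 and 8126 of all 45709 tested regions.

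The 45 calls fell on 29 distinct regions at 17 genes. Only 1 of the 29 regions covered a transcription start, 14 lay inside a gene and 14 outside, and 18 were under 1000 bp. The plot of counts by library shows the leading region of each of the 17 genes.

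**Figure D1:**
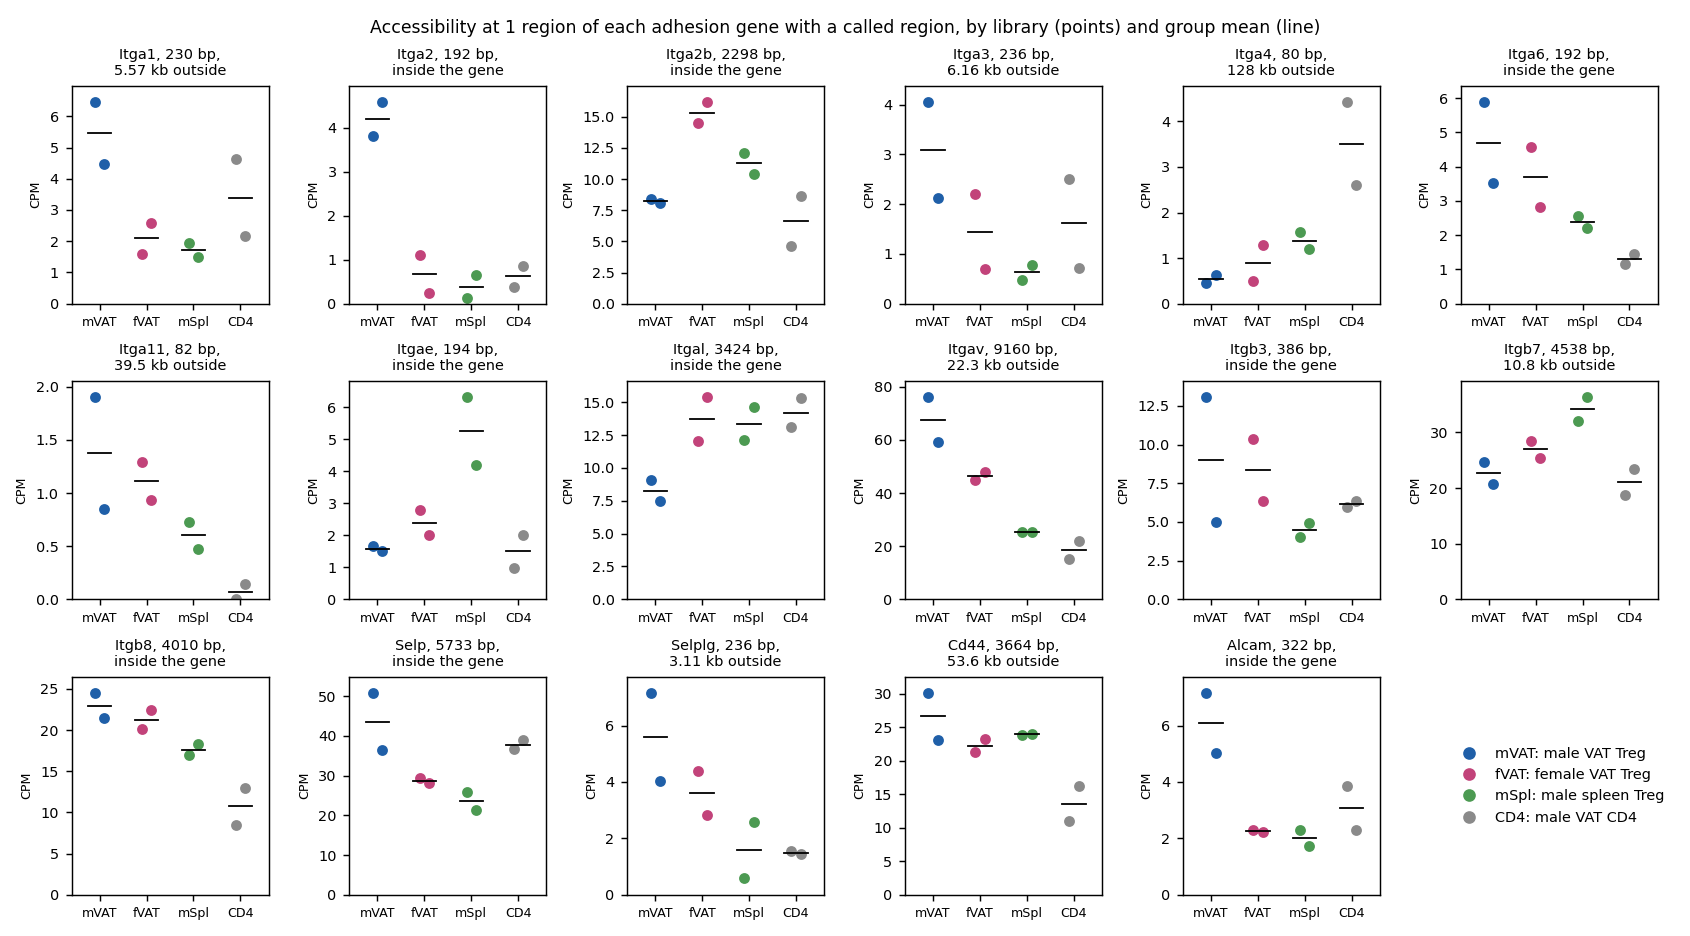
Accessibility in CPM (y axis, 1 panel per gene) in male VAT Tregs, female VAT Tregs, male spleen Tregs and male VAT CD4+ T cells, with 1 point per library and a line at each group mean. Each panel shows the region with the smallest adjusted p of its gene. The Itgav panel shows male VAT Tregs at 76.0 and 59.2 CPM, above every other library, and the Itgae panel shows male spleen Tregs above all others.

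The strongest signal in the family lay upstream of Itgav, which encodes the integrin alpha v chain, a partner of several beta chains, among them beta 3 and beta 8. Itgav had 11 regions, and a neighbouring pair of them lay more than 20 kb before the gene. The wider one, chr2:83690893-83700052 (9160 bp, 24.3 kb upstream of the annotated start), had 76.0 and 59.2 CPM in male VAT Tregs, 45.0 and 48.0 CPM in female VAT Tregs, 25.5 and 25.4 CPM in male spleen Tregs, and 15.0 and 21.8 CPM in male VAT CD4+ T cells. The groups were ordered with no overlap: male VAT Tregs were highest, then female VAT Tregs, spleen Tregs and CD4+ T cells.

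At that region male VAT Tregs exceeded spleen Tregs by 1.41 ± 0.18 on the log2 scale (value ± approximate SE, edgeR adjusted p = 3.34e-11) and CD4+ T cells by 1.87 ± 0.20 (edgeR adjusted p = 3.46e-16). Without male VAT Treg replicate 1 the first difference was 1.22, with an edgeR adjusted p of 4.44e-07. Female VAT Tregs also exceeded spleen Tregs there, by 0.87 ± 0.19 (edgeR adjusted p = 0.000716). This last call was lost without spleen replicate 1, spleen replicate 2 or female VAT replicate 2, with an adjusted p of up to 0.0685. The male over female difference in VAT was 0.55 ± 0.18 and did not pass (edgeR adjusted p = 0.0623).

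The narrower neighbour, chr2:83700448-83701371 (924 bp, 23.0 kb upstream), had 71.1 and 44.3 CPM in male VAT Tregs, 44.7 and 41.0 CPM in female VAT Tregs, 24.0 and 30.4 CPM in male spleen Tregs, and 11.2 and 19.0 CPM in male VAT CD4+ T cells. VAT Tregs of both sexes lay above the spleen and CD4+ libraries, while the male and female VAT libraries overlapped. Male VAT Tregs were higher than spleen Tregs by 1.08 ± 0.18 (edgeR adjusted p = 1.17e-06), and without male VAT Treg replicate 1 by 0.69 (edgeR adjusted p = 0.0225). The DESeq2 Wald test did not call this difference (adjusted p = 0.0713). They were higher than CD4+ T cells by 1.92 ± 0.20 (edgeR adjusted p = 5.94e-16). The female VAT over spleen difference of 0.64 ± 0.19 passed narrowly (edgeR adjusted p = 0.0458) and was lost without any 1 of the 4 female VAT and spleen libraries. With all libraries that call held in 3 of 8 alternatives.

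Per length, this 924 bp region held 62.4 CPM per kb in male VAT Tregs, 46.3 in female VAT Tregs, 29.4 in spleen Tregs and 16.3 in CD4+ T cells. The 95th percentile of all tested regions under 1000 bp was 28.1, 29.8, 30.9 and 35.6 CPM per kb in these groups. So the region was above that percentile in VAT Tregs of both sexes and below it in spleen Tregs and CD4+ T cells.

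The region over the Itgav start, chr2:83722344-83726563 (4220 bp), had 50.6 and 39.9 CPM in male VAT Tregs, 41.3 and 41.0 CPM in female VAT Tregs, 40.1 and 33.6 CPM in male spleen Tregs, and 41.2 and 42.1 CPM in male VAT CD4+ T cells. The groups overlapped, and no comparison passed: the log2 fold changes were 0.14 for male over female VAT, 0.31 for male VAT over spleen, 0.16 for female VAT over spleen and 0.12 for Treg over CD4+, with edgeR adjusted p of 0.833, 0.353, 0.901 and 0.828. Another Itgav region, chr2:83728511-83728644 (134 bp, inside the gene, 4.11 kb past the start), was higher in male VAT Tregs (2.34 and 2.88 CPM) than in spleen Tregs (0.606 and 0.657 CPM), by 2.00 ± 0.61 (edgeR adjusted p = 0.0221). That call was lost without any 1 of the 4 libraries compared, with an adjusted p of up to 0.146.

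**Figure D2:**
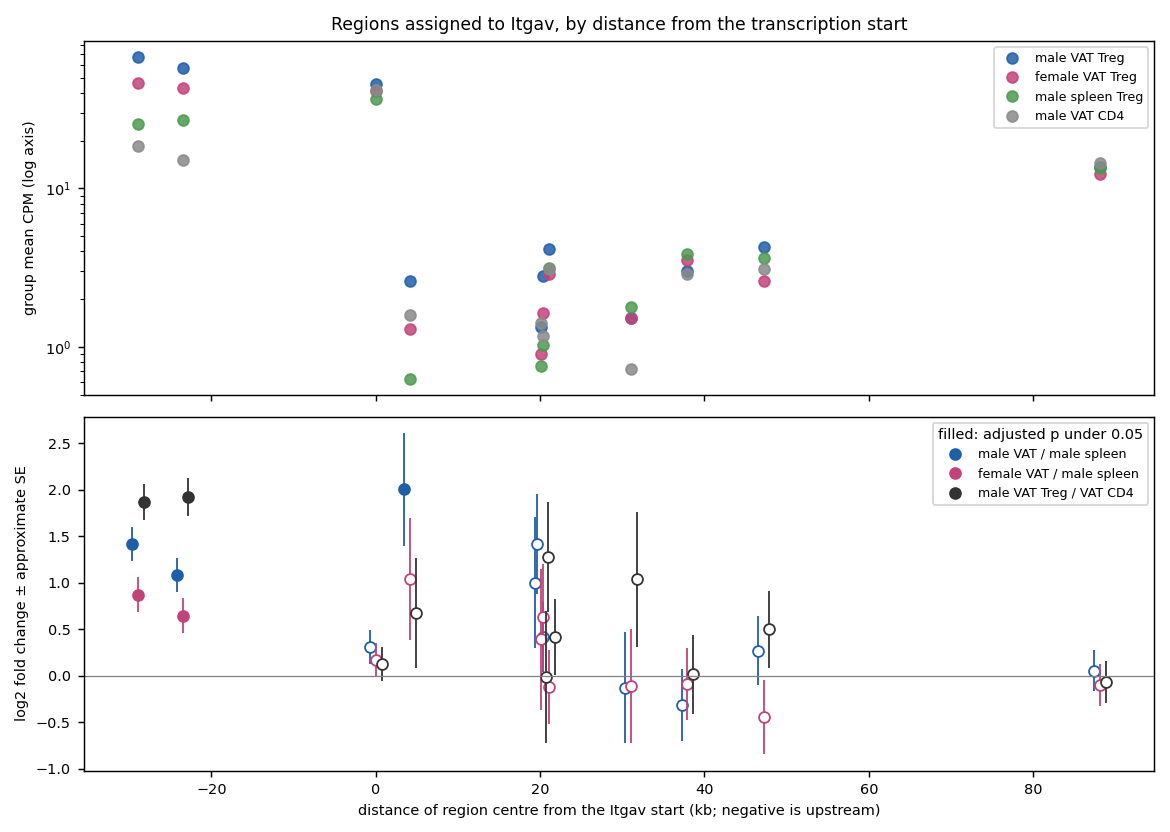
The 11 Itgav regions by distance of the region's centre from the Itgav start in kb (x axis). The top panel gives the mean CPM of each group on a log axis, and the bottom panel the log2 fold change with its approximate SE for 3 comparisons, with filled points where edgeR called a difference. Points are shifted slightly sideways to separate the comparisons. The upstream pair separates the groups, with male VAT Tregs at 1.41 and 1.08 log2 units over spleen Tregs, while the region over the start lies at 0.31.

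RefSeq (GRCm38.p6) gives a promoter for 23 of the 34 genes, and the start of 10 of them lay in a region. Shown here are the 250 bases before the start for Itgb8, whose start region was the only called one, for Itgav, whose start region was not called although its upstream pair was, and for Alcam, whose start region was the most accessible per length among the wider regions. Each is written 5′ to 3′ on the gene's own strand, with capitals for matches on either strand to a GC box (GGGCGG, the site of SP factors) or a CCAAT box (CCAAT, the site of NF-Y).
Itgb8 (chr12:119238277-119238526, minus strand): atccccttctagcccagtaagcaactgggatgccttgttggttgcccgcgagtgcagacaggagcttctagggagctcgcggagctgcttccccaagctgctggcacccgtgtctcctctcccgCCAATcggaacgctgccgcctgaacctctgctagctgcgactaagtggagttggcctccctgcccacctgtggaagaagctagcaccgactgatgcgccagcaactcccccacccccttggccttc
Itgav (chr2:83724147-83724396, plus strand): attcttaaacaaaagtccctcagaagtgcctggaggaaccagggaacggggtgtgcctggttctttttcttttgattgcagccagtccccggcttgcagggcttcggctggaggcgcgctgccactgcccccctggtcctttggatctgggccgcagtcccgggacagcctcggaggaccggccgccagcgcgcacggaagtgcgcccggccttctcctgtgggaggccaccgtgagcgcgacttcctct
Alcam (chr16:52453082-52453331, minus strand): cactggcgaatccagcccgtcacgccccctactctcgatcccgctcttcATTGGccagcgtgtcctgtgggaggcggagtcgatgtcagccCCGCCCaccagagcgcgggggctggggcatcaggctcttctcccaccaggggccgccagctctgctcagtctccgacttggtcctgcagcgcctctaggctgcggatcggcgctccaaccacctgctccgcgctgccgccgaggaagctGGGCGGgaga
The Itgb8 promoter held 1 CCAAT box, 126 bases before the start, and the Alcam promoter 2 GC boxes (159 and 10 bases before the start) and 1 CCAAT box (201 bases before). The Itgav promoter held neither. None of the 3 held the exact letters searched as ETS motif (CCGGAAG), RUNX motif (TGTGGT) or AP-1 motif (TGANTCA) on either strand. Variants of these letters were not searched. Among 32851 promoters of the same length, 32.7% held a GC box, 33.8% a CCAAT box, 6.91% the ETS motif, 14.0% the RUNX motif and 6.75% the AP-1 motif. The GC content was 62.4% for Itgb8, 64.4% for Itgav and 69.2% for Alcam, against a median of 52.4% over all promoters.

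The collagen and laminin chains supplied 4 of the 8 regions that were higher in male than in female VAT Tregs. These 7 genes, Itga1, Itga2, Itga3, Itga6, Itga7, Itga10 and Itga11, had 29 regions, of which 6 were higher in male VAT over spleen, none in female VAT over spleen and 3 in Treg over CD4+, all of the calls being in the higher direction. As shares of the 29 this was 13.8% by sex, 20.7% by tissue in males and 10.3% in Treg over CD4+, beside 2.04%, 4.64% and 5.18% of all tested regions. The called ones were all under 1000 bp, a width at which 4.68%, 10.2% and 10.3% of all tested regions were higher. The 29 also include wider regions. With male VAT Treg replicate 1 left out, the higher calls were 1 in each of these 3 comparisons, and 1 region was lower by sex. Itga1 and Itga2 encode the alpha chains of the collagen receptors VLA-1 and VLA-2, which pair with beta 1, and the 2 genes lie next to each other on chromosome 13.

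Itga2 had 9 regions. The one inside the gene at chr13:114887840-114888031 (192 bp, 44.1 kb from the start) had 3.80 and 4.59 CPM in male VAT Tregs, 1.10 and 0.235 CPM in female VAT Tregs, 0.121 and 0.657 CPM in male spleen Tregs, and 0.385 and 0.865 CPM in male VAT CD4+ T cells. In reads this was 60 and 43 counts in the male VAT Treg libraries, against 1 to 11 in the other 6. Both male VAT Treg libraries lay above all others, and replicate 2 was the higher one here.

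Male VAT Tregs were higher at this Itga2 region than spleen Tregs by 3.16 ± 0.61 (edgeR adjusted p = 2.78e-05), and the call held without any 1 library and under every alternative run. Over CD4+ T cells the difference was 2.66 ± 0.66 (edgeR adjusted p = 0.00199), lost only without CD4+ replicate 1 (adjusted p = 0.0838). Over female VAT Tregs it was 2.58 ± 0.60 (edgeR adjusted p = 0.00205). The difference by sex was lost without female VAT replicate 2 or male VAT replicate 2, with an adjusted p of up to 0.254, and by the DESeq2 Wald test.

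A second Itga2 region, chr13:114915798-114916032 (235 bp, 16.1 kb from the start), had 6.91 and 4.05 CPM in male VAT Tregs, 1.50 and 3.29 CPM in female VAT Tregs, and 2.42 and 2.09 CPM in spleen Tregs. It was higher in males by 1.24 ± 0.39 (edgeR adjusted p = 0.0459) and higher than in spleen by 1.32 ± 0.38 (edgeR adjusted p = 0.0132), but the CD4+ libraries, at 4.62 and 4.33 CPM, lay between the male VAT Treg libraries. Without male VAT Treg replicate 1 neither call remained, with adjusted p of 0.468 and 0.308, and both were also lost without either library of the other group. One more, chr13:114895880-114896243 (364 bp), was higher in male VAT Tregs (9.31 and 7.36 CPM) than in spleen Tregs (5.21 and 4.30 CPM), by 0.84 ± 0.28 (edgeR adjusted p = 0.0436). This call was lost in 5 of 8 fits without 1 library, those without either spleen or either female VAT library or without male VAT replicate 1, with an adjusted p of up to 0.347.

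At Itga1, 2 of 5 regions were called, in the same comparisons. The region inside the gene, chr13:115097089-115097256 (168 bp, 4.71 kb from the start, also listed for Pelo), had 4.69 and 4.27 CPM in male VAT Tregs, 1.70 and 0.821 CPM in female VAT Tregs, 1.45 and 1.37 CPM in spleen Tregs, and 2.12 and 3.89 CPM in CD4+ T cells. The region 5.57 kb upstream of the start, chr13:115107533-115107762 (230 bp), had 6.46 and 4.48 CPM in male VAT Tregs, 1.60 and 2.58 CPM in female VAT Tregs, 1.94 and 1.49 CPM in spleen Tregs, and 4.62 and 2.16 CPM in CD4+ T cells. At both, the male VAT Treg libraries lay above all female VAT and spleen libraries.

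The Itga1 region inside the gene was higher in male than in female VAT Tregs by 1.80 ± 0.46 (edgeR adjusted p = 0.00796) and than in spleen Tregs by 1.67 ± 0.44 (edgeR adjusted p = 0.00597). The upstream region was higher by 1.42 ± 0.41 (edgeR adjusted p = 0.0236) and 1.72 ± 0.41 (edgeR adjusted p = 0.00129). Without male VAT Treg replicate 1, the male over female differences were 1.73 and 1.11 (edgeR adjusted p = 0.0705 and 0.266) and the VAT over spleen differences 1.59 and 1.41 (edgeR adjusted p = 0.0743 and 0.087). Leaving out female VAT replicate 2 or spleen replicate 2 also ended these calls, and leaving out female VAT replicate 1 ended that of the upstream region, with adjusted p of up to 0.476.

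Itga3, Itga6 and Itga11 had 1 called region each. Itga3, a laminin receptor chain, had 4.05 and 2.13 CPM in male VAT Tregs against 0.485 and 0.776 CPM in spleen Tregs at chr11:95082999-95083234 (236 bp, 6.16 kb outside the gene). This was higher by 2.23 ± 0.57 (edgeR adjusted p = 0.00355), and without male VAT replicate 1 the difference was 1.68 and no longer called (adjusted p = 0.243). Female VAT Tregs had 2.19 and 0.704 CPM there, overlapping both groups.

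Itga6, another laminin receptor chain, had 5.89 and 3.52 CPM in male VAT Tregs against 1.16 and 1.44 CPM in CD4+ T cells at chr2:71837846-71838037 (192 bp, inside the gene). The difference was 1.86 ± 0.47 (edgeR adjusted p = 0.00299), lost without CD4+ replicate 1 or male VAT replicate 1, with an adjusted p of up to 0.166. Female VAT Tregs, at 4.59 and 2.82 CPM, and spleen Tregs, at 2.55 and 2.21 CPM, also lay above both CD4+ libraries.

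The only Itga11 region, chr9:62638315-62638396 (82 bp, 39.5 kb upstream of the gene of a collagen receptor chain), had 38 counts over the male VAT Treg libraries and 1 over the CD4+ libraries. Scaled for library size, the male VAT Treg level was 18.3 times the CD4+ level (95% interval 3.09 to 742, counting error only). It was called (edgeR adjusted p = 0.0202) and lost without male VAT replicate 1 or either CD4+ library, with an adjusted p of up to 0.312.

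Itga2b encodes the alpha IIb chain of platelets and megakaryocytes, and its only region, chr11:102466083-102468380 (2298 bp, inside the gene, also listed for Fam171a2), was the only member region with a lower call in males by sex. It had 8.43 and 8.10 CPM in male VAT Tregs, 14.5 and 16.2 CPM in female VAT Tregs, 12.1 and 10.4 CPM in spleen Tregs, and 4.62 and 8.65 CPM in CD4+ T cells. The difference by sex was -0.89 ± 0.24 (edgeR adjusted p = 0.011). It was lost without male VAT replicate 1 (-0.91, adjusted p = 0.0538) or either female VAT library, with an adjusted p of up to 0.233.

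Markers of platelets and megakaryocytes other than the members had 5 regions at 3 of 8 genes, and Gp6, Gp9, Pf4, Ppbp and Treml1 had none. Their summed accessibility was 125 and 96.7 CPM in male VAT Tregs, 122 and 121 CPM in female VAT Tregs, 139 and 131 CPM in spleen Tregs, and 110 and 117 CPM in CD4+ T cells. None of the 5 regions was called by sex, 1 was higher and 1 lower in male VAT over spleen, and 1 was higher in Treg over CD4+. The higher one in both lay at Gp1ba, with 8.11 and 2.77 CPM in male VAT Tregs, 0.849 and 1.07 CPM in spleen Tregs and 0.770 and 2.45 CPM in CD4+ T cells, and without male VAT replicate 1 it was called in neither (edgeR adjusted p = 0.179 and 0.699). The part of these markers in the Itga2b values was not tested. Itga8, an RGD-binding chain of mesenchymal cells, had 1 region over its start, at 11.8 to 17.5 CPM across the libraries, and it was not called.

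All calls at the leukocyte alpha chains were in the lower direction, and 4 of 11 tested regions were lower in male VAT than in spleen Tregs, at Itgae and Itgal. That is 36.4% of the 11, beside 2.09% of all tested regions. Without male VAT Treg replicate 1 the differences were -0.96, -1.20 and -1.77 at Itgae and -0.85 at Itgal, and not all 4 calls held. Itgae encodes CD103, the alpha E chain that pairs with beta 7 and binds E-cadherin. Of its 5 regions, 3 were lower in male VAT. The region chr11:73108323-73108516 (194 bp, inside the gene) had 1.65 and 1.49 CPM in male VAT Tregs and 2.79 and 1.99 CPM in female VAT Tregs, against 6.30 and 4.18 CPM in male spleen Tregs, with CD4+ T cells at 0.963 and 2.02 CPM. Both spleen libraries were above the other 6.

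The difference of that Itgae region between male VAT and spleen was -1.70 ± 0.42 (edgeR adjusted p = 0.00294), and it was lost only without spleen replicate 1 (adjusted p = 0.104). A wider region, chr11:73093663-73095936 (2274 bp, inside the gene), had 4.82 and 4.05 CPM in male VAT Tregs and 4.79 and 4.22 CPM in female VAT Tregs, against 8.97 and 9.61 CPM in spleen Tregs, with CD4+ T cells at 1.73 and 4.04 CPM. It was lower in VAT, with a log2 fold change of -1.06 ± 0.29 in males (edgeR adjusted p = 0.00893) and -1.04 ± 0.30 in females (edgeR adjusted p = 0.0422), against the same spleen libraries. With all libraries the female call held in 3 of 8 alternatives and the male call in 7 of 8.

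The male call at the wider Itgae region was lost without spleen replicate 2 or male VAT replicate 2 (adjusted p of up to 0.130), and the female call without any 1 of the 4 libraries compared (up to 0.461). The third region, chr11:73084396-73084541 (146 bp, 5.96 kb outside the gene), had 1.39 and 2.35 CPM in male VAT Tregs against 5.58 and 3.82 CPM in spleen Tregs. Its difference of -1.34 (edgeR adjusted p = 0.0336) was lost in 5 of 8 fits without 1 library, those without either spleen or either female VAT library or without male VAT replicate 1, with an adjusted p of up to 0.302.

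Itgal encodes the alpha L chain of LFA-1, the main ICAM receptor of T cells. Its region chr7:127294543-127297966 (3424 bp, overlapping the gene, also listed for Gm17511) had 9.06 and 7.46 CPM in male VAT Tregs, 12.1 and 15.4 CPM in female VAT Tregs, 12.1 and 14.6 CPM in spleen Tregs, and 13.1 and 15.3 CPM in CD4+ T cells. Both male VAT Treg libraries were below the other 6. The difference was -0.69 ± 0.23 against spleen (edgeR adjusted p = 0.0382), -0.77 ± 0.24 against CD4+ T cells (edgeR adjusted p = 0.0224), and -0.71 against female VAT Tregs, which did not pass (edgeR adjusted p = 0.0585).

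The Itgal call against spleen held in 2 of 8 fits without 1 library, those without a CD4+ library, and reached an adjusted p of 0.378. The call against CD4+ T cells was lost without CD4+ replicate 2 or male VAT replicate 2 (up to 0.236). General T cell markers had 40 regions at 8 of 8 genes, of which 1 was higher and 2 were lower in male VAT over spleen, and 1 was higher and 9 were lower in Treg over CD4+. Their summed accessibility was 448 and 333 CPM in male VAT Tregs, 452 and 465 CPM in female VAT Tregs, 447 and 466 CPM in spleen Tregs, and 408 and 515 CPM in CD4+ T cells. Their part in the Itgal values was not tested. B cell markers (11 regions), CD8 and NK markers (14 regions) and adipocyte markers (16 regions) gave 0, 0 and 0 higher and 0, 0 and 2 lower calls in male VAT over spleen. In Treg over CD4+ they gave 1, 0 and 1 higher and 1, 3 and 0 lower calls.

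Itgam and Itgax, chains of CR3 and CR4 on myeloid cells, had 3 regions and 1 region, of which 1 is shared, at 0 to 4.47 CPM, and none was called. Myeloid markers had 21 regions at 7 of 10 genes, with none at Adgre1, Csf1r and Lyz2, and a summed accessibility of 259.9 and 209 CPM in male VAT Tregs, 265 and 267 CPM in female VAT Tregs, 270.4 and 274 CPM in spleen Tregs, and 219 and 260.5 CPM in CD4+ T cells. Of these, 1 was lower by sex, 2 were lower in male VAT over spleen and 1 was lower in Treg over CD4+.

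Itga4 and Itga9 encode the closely related alpha 4 and alpha 9 chains, which bind VCAM-1 and other ligands. They had 10 and 6 regions, and 1 of the 16 was called. It lay far upstream of Itga4, at chr2:79127495-79127574 (80 bp, 128 kb before the start), with 0.443 and 0.640 CPM in male VAT Tregs, 0.499 and 1.29 CPM in female VAT Tregs and 1.58 and 1.19 CPM in spleen Tregs, against 4.43 and 2.60 CPM in CD4+ T cells. CD4+ T cells were above all 6 Treg libraries.

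That Itga4 region was lower in male VAT Tregs than in CD4+ T cells, with a log2 fold change of -2.69 ± 0.67 (edgeR adjusted p = 0.00242). The call was lost without CD4+ replicate 1 or male VAT replicate 1, with an adjusted p of up to 0.172. Another short Itga4 region, chr2:79236172-79236275 (104 bp), had 2.41 and 1.28 CPM in male VAT Tregs and 0.399 and 0.352 CPM in female VAT Tregs, and its difference of 2.29 did not pass (edgeR adjusted p = 0.0878). At the 6 Itga9 regions, all inside the gene, the log2 fold changes by sex ran from -0.23 to 0.42, and none was called.

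Of the beta chains, Itgb8 carried the Treg over CD4+ differences. It encodes beta 8, the partner of alpha v in the pair that activates TGF-beta, and 2 of its 5 regions were called, both wide. The region inside the gene, chr12:119203670-119207679 (4010 bp, 30.6 kb from the start), had 24.5 and 21.4 CPM in male VAT Tregs, 20.1 and 22.4 CPM in female VAT Tregs and 17.0 and 18.3 CPM in spleen Tregs, against 8.47 and 13.0 CPM in CD4+ T cells. All 6 Treg libraries lay above both CD4+ libraries.

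At that Itgb8 region male VAT Tregs exceeded CD4+ T cells by 1.08 ± 0.22 (edgeR adjusted p = 0.000107), and without male VAT replicate 1 by 0.97 (edgeR adjusted p = 0.00782). The call was lost only without CD4+ replicate 1 (adjusted p = 0.0525). The region over the start, chr12:119236308-119241139 (4832 bp), whose promoter is printed above, had 40.4 and 39.5 CPM in male VAT Tregs, 33.5 and 36.1 CPM in female VAT Tregs and 36.5 and 30.2 CPM in spleen Tregs, against 26.4 and 26.1 CPM in CD4+ T cells. It was higher in male VAT Tregs than in CD4+ T cells by 0.61 ± 0.19 (edgeR adjusted p = 0.0279).

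The start-region call was lost in 5 of 8 fits without 1 library, those without either CD4+ or either female VAT library or without male VAT replicate 1, with an adjusted p of up to 0.167. A short region inside Itgb8, chr12:119230642-119230837 (196 bp), had 4.63 and 5.86 CPM in male VAT Tregs and 1.93 and 2.60 CPM in CD4+ T cells, and its difference of 1.18 ± 0.41 did not pass (edgeR adjusted p = 0.0562). No Itgb8 region was called by sex or by tissue.

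Itgb3 encodes beta 3, which pairs with alpha v and alpha IIb. Its region chr11:104630229-104630614 (386 bp, inside the gene) had 13.1 and 5.01 CPM in male VAT Tregs, 10.4 and 6.34 CPM in female VAT Tregs, 4.00 and 4.96 CPM in spleen Tregs, and 5.97 and 6.35 CPM in CD4+ T cells. Male VAT over spleen was 1.03 ± 0.28 (edgeR adjusted p = 0.0062), but this rested on male VAT replicate 1, without which the difference was 0.14 (edgeR adjusted p = 0.877). The call was also lost without spleen replicate 1. Female VAT over spleen was 0.88 and did not pass (edgeR adjusted p = 0.0999).

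Itgb7 encodes beta 7, the partner of alpha 4 and alpha E. A region listed for it, chr15:102244196-102248733 (4538 bp, 10.8 kb outside the gene and overlapping Rarg), had 24.7 and 20.8 CPM in male VAT Tregs, 28.5 and 25.3 CPM in female VAT Tregs, 32.0 and 36.3 CPM in spleen Tregs, and 18.7 and 23.5 CPM in CD4+ T cells. It was lower in male VAT than in spleen Tregs, with a log2 fold change of -0.58 ± 0.19 (edgeR adjusted p = 0.0364). Leaving out either spleen library, either female VAT library or male VAT replicate 2 ended the call, with an adjusted p of up to 0.326.

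Itgb1, the common beta chain of the VLA family, had 2 regions with log2 fold changes of 0.11 to 0.56 by sex and 0.24 to 0.87 by tissue in males, and none was called. Itgb2, the beta chain of LFA-1, had 6 regions with changes of -0.51 to 0.61 by sex, and none was called. Itgb4, a beta chain of epithelial cells, had 2 uncalled regions. The 1 region of Itgb5, an alpha v partner, was too low for the test, at 0 to 17 counts.

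In the selectin group, Selp encodes P-selectin of platelets and endothelium, Selplg encodes its ligand PSGL-1 and Cd44 encodes the hyaluronan receptor that marks activated T cells. The 22 regions gave 2 higher calls by sex, 3 by tissue in males, none by tissue in females and 4 in Treg over CD4+, and no lower call. As shares of the 22 this was 9.09%, 13.6%, 0% and 18.2%, beside 2.04%, 4.64%, 1.18% and 5.18% of all tested regions. When male VAT Treg replicate 1 was left out, the higher calls were 0 by sex, 1 by tissue in males and 1 in Treg over CD4+. The single Selp region, chr1:164133341-164139073 (5733 bp, inside the gene, also listed for F5), had 50.8 and 36.4 CPM in male VAT Tregs, 29.3 and 28.2 CPM in female VAT Tregs and 25.8 and 21.4 CPM in spleen Tregs. The CD4+ T cells, at 36.6 and 38.9 CPM, lay within the range of the male VAT Tregs.

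Selp was higher in male than in female VAT Tregs by 0.61 ± 0.19 (edgeR adjusted p = 0.0392) and higher in male VAT than in spleen Tregs by 0.90 ± 0.19 (edgeR adjusted p = 0.000123). The first call was lost without male VAT replicate 1 (0.34, adjusted p = 0.44), either female VAT library or either spleen library. The second was lost only without spleen replicate 2 (adjusted p = 0.0642). Stromal and endothelial markers had 22 regions at 6 of 12 genes, with none at Tek and Tie1, and a summed accessibility of 177 and 203 CPM in male VAT Tregs, 191 and 193 CPM in female VAT Tregs, 211 and 189 CPM in spleen Tregs, and 219 and 189 CPM in CD4+ T cells. None of these 22 was called by edgeR in any of the 4 comparisons.

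Selplg had 5 regions, 1 of them called: chr5:113814451-113814686 (236 bp, 3.11 kb outside the gene, also listed for Tmem119 and Gm19941). It had 7.16 and 4.05 CPM in male VAT Tregs, 4.39 and 2.82 CPM in female VAT Tregs, 0.606 and 2.57 CPM in spleen Tregs, and 1.54 and 1.44 CPM in CD4+ T cells. VAT Tregs of both sexes lay above the spleen and CD4+ libraries. Male VAT was higher than spleen by 1.68 ± 0.39 (edgeR adjusted p = 0.00114) and higher than CD4+ by 1.93 ± 0.46 (edgeR adjusted p = 0.0011). Without male VAT replicate 1 these were 1.19 and 1.44 and no longer called, with adjusted p of 0.163 and 0.148, and the first was lost without spleen replicate 1 too.

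Cd44 had 16 regions, and the called ones lay upstream of the gene. The shortest, chr2:102942149-102942368 (220 bp, 40.5 kb upstream), had 3.74 and 2.56 CPM in male VAT Tregs, 0.698 and 0.117 CPM in female VAT Tregs, 0.849 and 0.299 CPM in spleen Tregs, and 0.770 and 0.721 CPM in CD4+ T cells. Both male VAT Treg libraries were above all others. The difference was 2.87 ± 0.70 by sex (edgeR adjusted p = 0.0038), 2.61 ± 0.66 over spleen (edgeR adjusted p = 0.00323) and 2.08 over CD4+ T cells (edgeR adjusted p = 0.0392).

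Without male VAT replicate 1 none of these Cd44 calls remained, with differences of 2.56 by sex and 2.26 over spleen and adjusted p of 0.154, 0.161 and 0.398 in the 3 comparisons. The calls by sex and over spleen were also lost without replicate 2 of the other group, and the call over CD4+ T cells without either CD4+ library, either female VAT library or male VAT replicate 2. The call over CD4+ T cells held in 2 of 8 alternatives with all libraries. It was lost by the DESeq2 Wald test, limma-voom, the replicate block, loess offsets, TMM on regions under 1000 bp and the fit with no low-count filter, with an adjusted p of up to 0.161, and the call by sex was lost by the DESeq2 Wald test. The 2 wider regions, 45.2 kb and 53.6 kb upstream, were called in Treg over CD4+.

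At chr2:102946892-102950373 there were 27.6 and 18.6 CPM in male VAT Tregs against 11.9 and 13.6 CPM in CD4+ T cells, a difference of 0.86 ± 0.22 (edgeR adjusted p = 0.00283). At chr2:102955264-102958927 there were 30.1 and 23.1 CPM in male VAT Tregs against 10.98 and 16.15 CPM in CD4+ T cells, a difference of 0.96 ± 0.21 (edgeR adjusted p = 0.00039). The Cd44 call nearer the gene was lost without male VAT replicate 1 (0.53, adjusted p = 0.263) or CD4+ replicate 1, and the farther one only without CD4+ replicate 1 (adjusted p = 0.0926). The region over the Cd44 start had 15.3 and 12.5 CPM in male VAT Tregs, 13.4 and 13.6 CPM in female VAT Tregs, 15.3 and 15.8 CPM in spleen Tregs and 11.9 and 14.0 CPM in CD4+ T cells, and no comparison called it.

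Of the immunoglobulin superfamily members, Alcam, which encodes CD166, the ligand of CD6 on T cells, had 8 regions, and 3 were called. The region inside the gene, chr16:52329416-52329737 (322 bp), had 7.16 and 5.01 CPM in male VAT Tregs, 2.29 and 2.23 CPM in female VAT Tregs, 2.30 and 1.73 CPM in spleen Tregs, and 3.85 and 2.31 CPM in CD4+ T cells. Both male VAT Treg libraries were above all others. It was higher by 1.44 ± 0.39 by sex (edgeR adjusted p = 0.0136) and by 1.64 ± 0.39 over spleen (edgeR adjusted p = 0.00129).

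Without male VAT replicate 1 these Alcam differences were 1.14 and 1.35 and no longer called, with adjusted p of 0.208 and 0.0831. The first was also lost without either female VAT library, and the second without spleen replicate 2. A wide region, chr16:52467327-52473430 (6104 bp, 14.2 kb upstream), had 46.5 and 43.3 CPM in male VAT Tregs against 31.7 and 28.3 CPM in female VAT Tregs, with 32.3 to 36.2 CPM in the other 4 libraries. Its difference by sex, 0.58 ± 0.18, passed narrowly (edgeR adjusted p = 0.0496). The call was lost without either spleen library, either female VAT library or male VAT replicate 1. With all libraries it held in 2 of 8 alternatives. It was lost by the DESeq2 Wald test, no low-count filter, TMM on regions under 1000 bp, loess offsets, library size alone and the replicate block.

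The farthest called Alcam region, chr16:52541536-52541617 (82 bp, 88.5 kb upstream), had 2.09 and 2.03 CPM in male VAT Tregs and 1.30 and 0.704 CPM in female VAT Tregs, against 0.242 and 0.418 CPM in spleen Tregs. Male VAT over spleen was 2.51 ± 0.75 (edgeR adjusted p = 0.0188), lost without any 1 of the 4 libraries compared, with an adjusted p of up to 0.134. The wide region over the Alcam start was not called in any comparison.

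Cadm1, a homophilic adhesion molecule of epithelia, mast cells and neurons, had 51 regions, more than any other member. Of them 26 lay inside the gene and 25 outside, up to 249 kb away. The widest, chr9:47330096-47381235 (51140 bp), had 193 and 212 CPM in male VAT Tregs, 223 and 183 CPM in female VAT Tregs, 201 and 176 CPM in spleen Tregs, and 227 and 206 CPM in CD4+ T cells. The groups overlapped there, and none of the 50 tested Cadm1 regions was called.

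Per length, the 47 Cadm1 regions of 1000 bp or more had a median of 3.94 CPM per kb in male VAT Tregs, 3.67 in female VAT Tregs, 3.67 in spleen Tregs and 4.10 in CD4+ T cells. The median of all regions of that width was 4.00, 4.05, 4.01 and 4.23 CPM per kb. The 54 wide regions of the other members had medians of 4.24, 4.71, 4.53 and 4.26 CPM per kb. The highest in male VAT Tregs were the regions over the starts of Alcam, at 12.9 CPM per kb, and Itgav, at 10.7 CPM per kb, against a 95th percentile of 10.5 over all regions of 1000 bp or more.

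**Figure D3:**
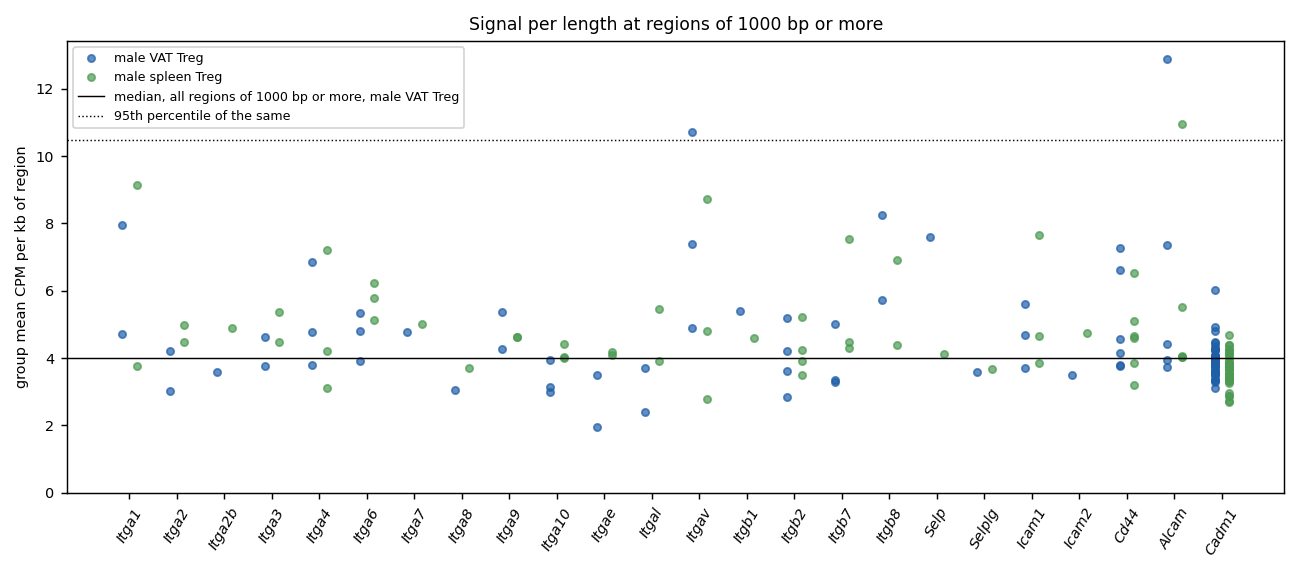
Group mean accessibility per length (CPM per kb) of member regions of 1000 bp or more, by gene, in male VAT Tregs and male spleen Tregs, with 1 point per region. The line marks the median of all such regions in male VAT Tregs (4.00 CPM per kb) and the dotted line their 95th percentile (10.5 CPM per kb). The Cadm1 regions lie close to the median, from 3.12 to 6.03 CPM per kb in male VAT Tregs, and only the start regions of Alcam and Itgav pass the dotted line in male VAT Tregs.

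Icam1 and Icam2 encode ligands of LFA-1. Icam1 had 3 regions with log2 fold changes of -0.30 to -0.01 by sex and -0.44 to 0.03 by tissue in males, and Icam2 had 1 region with changes of -0.32 and -0.45. In all, 13 genes had regions but no call with all 8 libraries: Itga7, Itga8, Itga9, Itga10, Itgam, Itgax, Itgb1, Itgb2, Itgb4, Itgb5, Icam1, Icam2 and Cadm1. Since the genes were grouped by having no edgeR call, the edgeR count of 0 over their 79 tested regions was set by the grouping. On the same libraries limma-voom and DESeq2 also called 0. Of the 79, edgeR gave an unadjusted p under 0.05 at 2 by sex, 5 by tissue in males, 3 by tissue in females and 6 in Treg over CD4+. Of all 45709 tested regions 6130, 8516, 4221 and 8126 had such a p. The smallest edgeR adjusted p of these genes was 0.247, 0.100, 0.289 and 0.0749. The grouping itself leaves out small p-values, so these figures cannot show that the genes lack a difference.

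Short regions held most of the calls by sex and by tissue in males. Of the 76 tested member regions under 1000 bp, 6 (7.89%) were higher in male over female VAT and 13 (17.1%) in male VAT over spleen, beside 4.68% and 10.2% of all tested regions of that width. Of the same 76, 0 and 2 were lower, beside 0.733% and 1.07% of all. Of the 101 wider ones, 2 and 2 were higher (0.572% and 1.54% of all tested regions of that width) and 1 and 3 were lower (1.48% and 2.66% of all). Male VAT replicate 1 exceeded replicate 2 at 63 of the 76 short regions and at 114 of all 177, and at 7 of the 8 regions higher by sex, 13 of the 15 higher over spleen and 10 of the 11 higher over CD4+ T cells. Over all tested regions, those under 1000 bp held 5.55% of the counts of replicate 1 and 4.22% of those of replicate 2. With TMM on regions under 1000 bp, 3 in place of 8 regions were higher by sex and 11 in place of 15 over spleen, and with loess offsets by mean level 6 and 13 were.

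**Figure D4:**
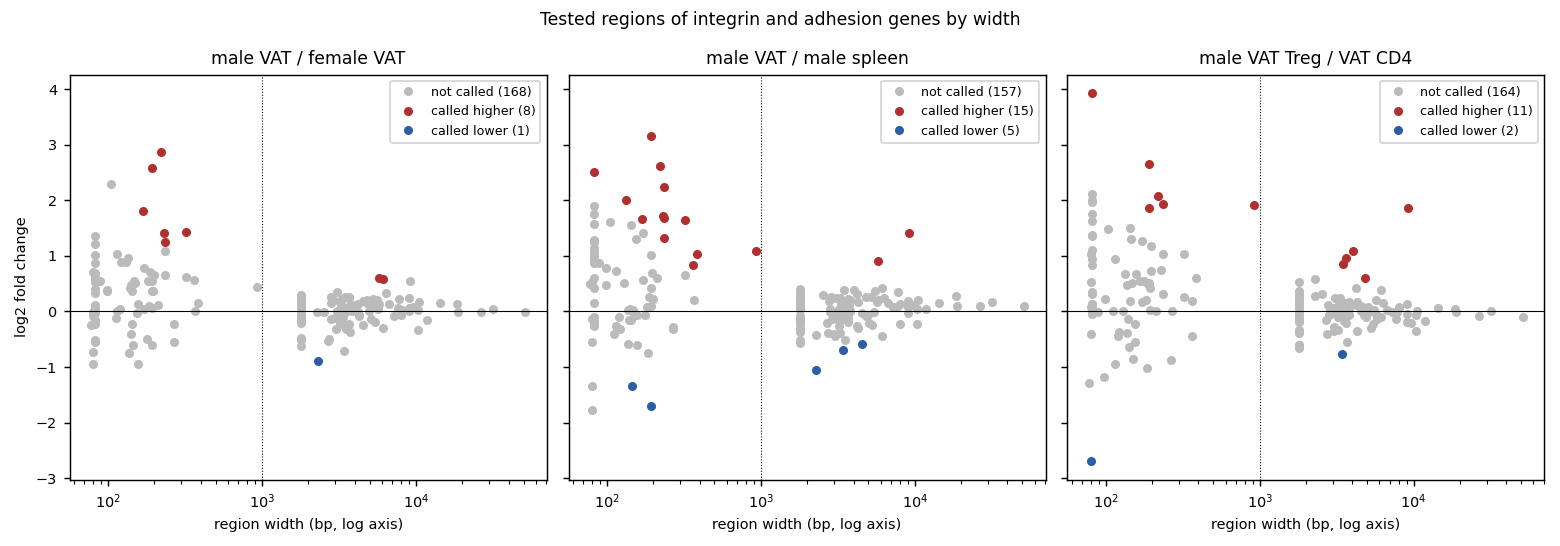
Log2 fold change (y axis) of the 177 tested member regions against region width in bp (x axis, log scale), with 1 panel for each of male over female VAT Tregs, male VAT over male spleen Tregs, and male VAT Tregs over male VAT CD4+ T cells. Marks distinguish regions called higher (8, 15 and 11), called lower (1, 5 and 2) and not called (168, 157 and 164). Most of the large positive changes by sex and by tissue lie below 1000 bp, and the wide Itgav region stands apart on the right.

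Without male VAT Treg replicate 1, the call kept by sex was that of the short Itga2 region, and most calls by tissue in males and in Treg over CD4+ were lost. The comparison by tissue in females does not contain that library, so leaving it out does not test the 3 calls there. Each of those 3 was lost without some library that the comparison does contain. The calls that held without any 1 of the 8 libraries were none by sex, 3 by tissue in males and 2 in Treg over CD4+. They were the upstream Itgav pair, in both of these comparisons, and the short Itga2 region, by tissue in males. At the narrower of the Itgav pair, the DESeq2 Wald test on all 8 libraries did not call the difference over spleen. No called member region turned its sign in any fit, which is no separate support, since a call already requires a difference large against its error.

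**Figure D5:**
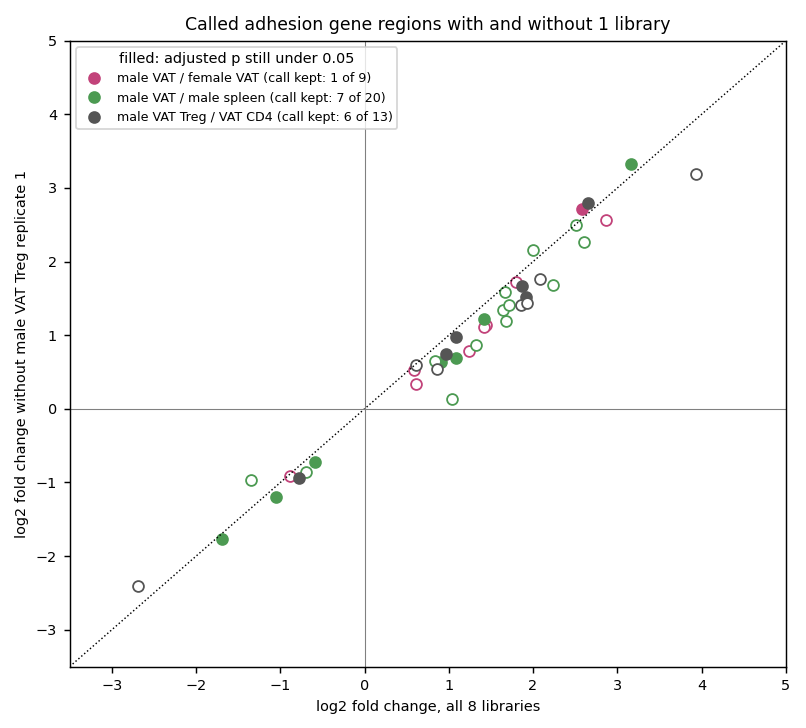
Log2 fold change of each called member region in the fit of all 8 libraries (x axis) against the fit without male VAT Treg replicate 1 (y axis), in the comparisons by sex, by tissue in males and of Treg over CD4+. Marks distinguish calls kept without that library (1 of 9, 7 of 20 and 6 of 13) from those lost. All points keep their sign, and the Itgb3 region moves the farthest toward 0, where the difference of 1.03 becomes 0.14.

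Other genes of the adhesion machinery were counted in 3 lists that do not contain the members. The list of integrin activation and linkage (talin, kindlin, Rap1 and kinase genes and the like, 184 tested regions at 38 of 40 genes) had 6 higher and 7 lower regions by sex, 13 and 7 by tissue in males, 4 and 0 by tissue in females, and 13 and 5 in Treg over CD4+. In these comparisons 3.26%, 7.07%, 2.17% and 7.07% of its regions were higher and 3.80%, 3.80%, 0% and 2.72% lower, beside 2.04%, 4.64%, 1.18% and 5.18% higher and 1.21%, 2.09%, 0.197% and 2.51% lower of all tested regions. The list had, without male VAT Treg replicate 1, 1 higher and 12 lower by sex, 5 and 7 by tissue in males and 4 and 5 in Treg over CD4+. By sex it was led by Nedd9, a focal adhesion adaptor, with 12.4 and 9.28 CPM in male VAT Tregs against 3.89 and 4.11 CPM in female VAT Tregs, a difference of 1.45 ± 0.30 (edgeR adjusted p = 0.000272). Ptk2b, a focal adhesion kinase, was higher by 1.49 and Skap1, an adaptor of T cell integrin activation, was lower (-2.26). In male VAT over spleen it was led by Src, the tyrosine kinase, at 1.34 ± 0.20 (edgeR adjusted p = 6.88e-09), Rasgrp1 at 1.28 and Cyth1, which binds the beta chain of LFA-1, at 3.45. In female VAT over spleen the same 3 genes had 0.92, 0.93 and 2.53 against the same spleen libraries. In Treg over CD4+, Rapgef1 had 2.05, Nedd9 2.01 and Src 0.96. Calls lost without that library were those of Ptk2b by sex (1.06), Cyth1 in male VAT over spleen (2.52) and Src over CD4+ (0.53). In female VAT over spleen, a comparison that does not contain that library, the Cyth1 call was also lost while its difference stayed at 2.53.

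The list of ligands and counter-receptors (114 tested regions at 30 of 34 genes) had 5 higher and 1 lower by sex, 10 and 3 by tissue in males, 4 and 0 by tissue in females, and 12 and 3 in Treg over CD4+. In shares, 4.39%, 8.77%, 3.51% and 10.5% of its regions were higher and 0.877%, 2.63%, 0% and 2.63% lower, to be read against the same shares of all regions. With male VAT Treg replicate 1 left out, fewer of its regions were called higher by sex, by tissue in males and in Treg over CD4+. Some were newly called lower by sex. Tnc encodes tenascin-C, a matrix ligand of alpha v and alpha 9 integrins, and its region of 872 bp had 37.6 and 19.9 CPM in male VAT Tregs and 17.2 and 16.2 CPM in female VAT Tregs, against 4.49 and 5.31 CPM in spleen Tregs. It was higher in male VAT by 2.55 ± 0.23 (edgeR adjusted p = 1.4e-21) and in female VAT by 1.74 ± 0.24 (edgeR adjusted p = 1.6e-09). By sex the leading genes were the laminin chains Lamc1 (2.51) and Lama4 (1.67) and the protease Adam8 (2.22). In that fit Tnc kept its call over spleen (2.00, edgeR adjusted p = 2.7e-09), as did Lamc1 and Lama4 theirs by sex (2.09 and 1.64), and Adam8 lost its call (1.36, edgeR adjusted p = 0.166). Tgfb1, whose latent product binds alpha v beta 8, had 7.08 and 5.75 CPM in female VAT Tregs against 1.82 and 1.25 CPM in spleen Tregs, a difference of 2.11 ± 0.40 (edgeR adjusted p = 8.49e-05).

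The list of selectin ligand synthesis and other adhesion molecules (98 tested regions at 25 of 34 genes) had 5 higher and 2 lower by sex, 8 and 2 by tissue in males, 1 and 0 by tissue in females, and 6 and 8 in Treg over CD4+. In shares, 5.10%, 8.16%, 1.02% and 6.12% of its regions were higher and 2.04%, 2.04%, 0% and 8.16% lower. The fit with male VAT Treg replicate 1 left out had 0 higher and 2 lower by sex, 1 and 1 by tissue in males and 2 and 3 in Treg over CD4+. St3gal1 (2.53) and Gcnt1 (1.67), enzymes that build O-linked sugar chains, led it in male VAT over spleen, where a short Cd2 region was lower (-1.97). By sex, the X-linked Cd99l2 was lower in males (-0.94), as was a wide Cd2 region (-0.69), and Cd226 was higher (1.27). In Treg over CD4+, Cd226 (1.88) and Cd48 (2.09) were higher and a Cd2 region lower (-1.66). In the fit just named, the calls lost were those of Cd226 by sex (0.99, edgeR adjusted p = 0.223), St3gal1 (1.83, edgeR adjusted p = 0.146) and Cd2 over spleen (-2.72, edgeR adjusted p = 0.053), and Cd2 over CD4+ (-1.39, edgeR adjusted p = 0.0511). The medians over all regions of the 3 lists lay between -0.14 and 0.06 in every comparison.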

How the data were processed

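ATAC-seq libraries of sorted mouse T cells were analysed as 4 groups of 2 libraries. The deposited table gives raw counts per region that the authors made, with a gene named for each region, and the separate log2 CPM files were not used. Tools listed in the submitters' processing notes are HOMER 4.9, limma, featureCounts and Subread 1.6.2, with the builds GRCm38 and mm10 and no roles given. How the regions were called, and whether their starts count from 0 or 1, is not given in the sources used here.

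The 62205 entries were reduced to 46624 distinct regions, since a region listed for several genes repeats. Those on the autosomes, X and Y with a gene ID, 46512, were used. Member regions are those whose symbol equals a member's. edgeR 4.0.16 (R 4.3.3) fitted all 8 libraries in 1 quasi-likelihood model of group means, with TMM scaling (factors 0.907 to 1.06) and filterByExpr, leaving 45709 regions and 4 residual degrees of freedom. Adjusted p-values are Benjamini-Hochberg over all of them, and a call is an adjusted p under 0.05. A standard error is approximated as the size of the log2 fold change over the square root of F. CPM are scaled by TMM library sizes.

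Alternatives were DESeq2 1.42.0 (size factors, Wald test), limma-voom 3.58.1, no low-count filter, TMM on regions under 1000 bp, loess offsets, library size alone, a replicate block, and leaving out each library. The fit was tested on simulated counts. The genes named are all members with a called region and, per list and comparison, up to 3 called genes of smallest adjusted p. The members and lists were chosen with earlier results of these data known. Gene bounds are from RefSeq annotation of GRCm38.p6.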

Additional observations from a re-analysis of the deposited data

How the results depend on the processing

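No called member region turned its sign under any setting, and of the uncalled ones up to 50 did. A call already requires a difference large against its error, so this contrast is no separate support for the calls. Counts of member regions called higher and lower were, with all settings as described, 8 and 1 by sex, 15 and 5 in male VAT over spleen, 2 and 1 in female VAT over spleen, and 11 and 2 in Treg over CD4+. The DESeq2 Wald test called 0 and 0 by sex, 6 and 1 by tissue in males, 1 and 0 by tissue in females, and 9 and 1 in Treg over CD4+. Of all tested regions it called 0.774% and 0.333%, 2.43% and 0.545%, 0.54% and 0.0744%, and 2.74% and 1.33% in that order. TMM on regions under 1000 bp moved the median of all regions by sex, by tissue in males, by tissue in females and in Treg over CD4+ to -0.09, -0.17, -0.07 and -0.25. With it, 3 and 1, 11 and 7, 1 and 0, and 8 and 5 member regions were called in that order. The shares of all tested regions were then 1.07% and 1.05%, 2.87% and 3.63%, 0.547% and 0.107%, and 2.67% and 4.37%. Loess offsets called 6 and 1, 13 and 4, 1 and 0, and 9 and 1 in the same order. Of all tested regions these offsets called 1.74% and 0.965%, 3.96% and 1.71%, 1.04% and 0.168%, and 4.58% and 2.32%. Library size alone called 5 and 1, 14 and 3, 1 and 0, and 12 and 1 member regions. Its shares of all tested regions were 1.66% and 0.702%, 3.92% and 1.67%, 0.812% and 0.149%, and 6.28% and 1.47%. Library size alone moved the median of all regions to 0.11 in Treg over CD4+. The cause of these changes was not tested.

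Leaving out each library in turn gave 0 to 9 higher and 0 to 2 lower by sex, 4 to 19 and 1 to 5 by tissue in males, 0 to 2 and 0 to 1 by tissue in females, and 3 to 12 and 2 to 3 in Treg over CD4+. A lone library left in a group is then assumed to vary like the other groups. The shares called among all tested regions also moved between these fits in every comparison. The ranges for the members therefore cannot be read as particular to them. A replicate block called 5 and 1 by sex, 14 and 3 by tissue in males, 1 and 0 by tissue in females, and 9 and 2 in Treg over CD4+. Of all tested regions it called 1.73% and 0.895%, 4.0% and 1.45%, 0.995% and 0.155%, and 4.59% and 2.09%. Between groups, deviations of same-numbered libraries from their group means correlated at -0.146 to 0.0666. With 2 libraries per group this cannot show whether same-numbered libraries shared mice or a batch, and the labels do not say.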
